A study of Mus musculus with 6 samples.

Results

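Synaptic vesicle release was examined through 57 genes of the 20234 in a single-cell UMI table of mouse hippocampal CA1. The genes were all rows named Snap25, Snap23, Snap91, Syn1 to Syn3 or Sv2a to Sv2c, all rows that start with Syt, Stx, Vamp or Cplx and a digit, and all rows that start with Stxbp. By role they held 7 plasma membrane Q-SNAREs, 9 endosome and Golgi Q-SNAREs, 6 R-SNAREs (the Vamp genes), 17 synaptotagmins, 3 complexins, 8 SM (Sec1 and Munc18 family) and other syntaxin-binding proteins, 3 synapsins, 3 SV2 proteins and the clathrin adaptor AP180 (Snap91). UMIs of 56 of them were found in retained cells, and Syt8 had 0.

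Transmitter is released when a synaptic vesicle fuses with the presynaptic membrane. Syntaxin and SNAP-25 on the plasma membrane zip together with synaptobrevin (Vamp1, Vamp2) on the vesicle, and proteins of the Munc18 family bind syntaxin for this assembly. Synaptotagmins sense calcium, complexins clamp and then promote the zipped complex, synapsins tether vesicles in the reserve pool, and SV2 proteins sit in the vesicle membrane. Many relatives, such as SNAP-23, syntaxin 4, Munc18-3 (Stxbp3) and VAMP8, serve fusion at other membranes and in cells that are not neurons.

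All animals were male C57Bl6 mice at P28, and each received 1 injection of placebo or of recombinant human EPO (rhEPO, 5000 IU/kg). The CA1 was dissected 6 hours later, dissociated and sequenced by Drop-seq, a droplet method that tags each captured mRNA at its 3′ end with a unique molecular identifier (UMI). There were 3 placebo mice (1, 3 and 5) and 3 EPO mice (2, 4 and 6), and each mouse is 1 library. The labels give D number 1 for placebo mice 1 and 3 and EPO mouse 2. They give D number 2 for placebo mouse 5 and EPO mice 4 and 6. What the D number marks is not given in the sources used here. Barcodes with 1001 to 8000 detected genes and at most 40% mitochondrial UMIs were retained, which left 973 cells, 390 from placebo and 583 from EPO mice.

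Retained cells held between 204479 UMIs (placebo mouse 3, 43 cells) and 1948490 UMIs (EPO mouse 4, 271 cells) per mouse, and 0.899% of all retained UMIs fell in the 57 genes. Cells were named from standard markers with the 57 genes left out of the clustering: 620 glutamatergic-like, 45 GABAergic-like, 129 oligodendrocyte-like, 77 astrocyte-like, 45 oligodendrocyte precursor (OPC)-like, 39 endothelial-like and 18 microglia-like cells. The glutamatergic-like cells were divided into 394 CA1 pyramidal-like cells, 85 subiculum-like cells led by Nts and Slc17a6, and 141 cells led by Rxfp1, Tshz2 and Tshz3, whose median mitochondrial share was 21.1%. The OPC-like cluster was also led by the mural genes Rgs5, Myh11 and Tagln. Between 5 and 9 markers were seen in each subiculum-like or CA1 pyramidal-like cluster, so both regions were represented by their markers.

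Placebo mouse 1 and EPO mouse 4 shared 59 cell barcodes, against 3 to 9 for every other pair of mice. Of these, 26 were retained in both libraries, with a median profile correlation of 0.763 against 0.324 for other cell pairs of these mice. Calls that changed when these cells were left out are named with their values.

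The start regions of 3 of the genes on which the results turn are shown for context: Cplx1, which varied among neurons, Syt2, the member with the smallest p after EPO, and Stxbp3 (Stxbp3a in the table), the member with the largest rise in oligodendrocyte-like cells. Each line gives the 250 bases before a RefSeq start site on GRCm38.p6, read 5′ to 3′ on the strand of the gene, and capitals mark the GC box GGGCGG or its other strand CCGCCC.
Cplx1, chr5:108550028-108550277, minus strand: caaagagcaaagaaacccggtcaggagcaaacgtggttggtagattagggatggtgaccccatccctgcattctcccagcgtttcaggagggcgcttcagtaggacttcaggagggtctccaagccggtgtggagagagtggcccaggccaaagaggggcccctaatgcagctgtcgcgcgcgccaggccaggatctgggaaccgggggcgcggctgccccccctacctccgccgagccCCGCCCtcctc
Syt2, chr1:134646362-134646611, plus strand: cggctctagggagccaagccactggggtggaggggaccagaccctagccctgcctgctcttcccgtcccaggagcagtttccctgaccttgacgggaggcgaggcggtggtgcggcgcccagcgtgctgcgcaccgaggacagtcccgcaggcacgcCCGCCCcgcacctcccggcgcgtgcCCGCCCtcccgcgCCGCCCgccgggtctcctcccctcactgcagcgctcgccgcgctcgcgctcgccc
Stxbp3, chr3:108840503-108840752, minus strand: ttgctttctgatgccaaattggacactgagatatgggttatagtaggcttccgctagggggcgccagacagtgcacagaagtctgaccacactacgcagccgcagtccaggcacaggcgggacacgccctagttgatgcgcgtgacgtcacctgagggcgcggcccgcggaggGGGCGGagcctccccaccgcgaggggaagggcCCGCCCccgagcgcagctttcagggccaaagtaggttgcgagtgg
The GC box occurred in 32.7% of 32851 mouse promoter windows of this length and in 33 of the 59 windows (55.9%) of the 44 members with an entry. The cAMP response element TGACGTCA, which reads the same on both strands, occurred in 1.55% of all windows and in those of Stxbp3 and Syn1. TATAAA, on either strand, occurred in 12.4% of all windows and in 4 of the 59, and none of the 3 windows shown held it. A match is a run of letters and says nothing of binding.

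The first question was which members differ between inhibitory and excitatory neurons. In GABAergic-like cells SV2A, Complexin 1 and Complexin 2 transcripts were higher and SV2B and synaptotagmin 5 transcripts lower than in glutamatergic-like cells of the same mice. Levels are given in CPM, the UMIs of a gene per 1000000 UMIs of that mouse and class. Sv2a, a vesicle protein found at most synapses, had a lowest, median and highest level of 257, 339 and 456 CPM over the glutamatergic-like cells of 6 mice, and 833, 1018 and 981 in the GABAergic-like cells of EPO mouse 4, placebo mouse 5 and EPO mouse 6, the 3 mice with at least 5 such cells. The groups of values did not overlap, and the difference was 1.54 ± 0.28 on the log2 scale (SE, adjusted p = 2.91e-05, edgeR's quasi-likelihood test with Benjamini-Hochberg adjustment). All 3 GABAergic-like sums came from mice of D number 2, while the glutamatergic-like ranges given here and below also hold mice of D number 1. The fit had the mouse as a block.

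Its relative Sv2b ran the other way. Sv2b lay at 128, 198 and 231 CPM (lowest, median, highest) in glutamatergic-like cells and at 24.7, 0 and 50.3 in the GABAergic-like cells of mice 4, 5 and 6, again without overlap (log2 difference -3.19 ± 0.63, adjusted p = 0.000112). In the GABAergic-like cells Sv2b held 5 UMIs in all, which was 8.71% of the glutamatergic-like level. The 6 neuron-only genes used to gauge free RNA stood at 14.3% of that level there. GABAergic neurons also express several of them, so they give no background level in this class. Whether the remaining Sv2b is background was not tested.

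Cplx1, a complexin of fast synapses, was measured at 49.4, 92.2 and 162 CPM (lowest, median, highest) in glutamatergic-like cells and at 313, 326 and 352 in the GABAergic-like cells of mice 4, 5 and 6, with no overlap (1.79 ± 0.38, adjusted p = 0.000272). Syt5, a calcium-binding synaptotagmin, was at 182, 202 and 269 against 33.0, 59.3 and 75.5 (-2.05 ± 0.49, adjusted p = 0.00157). For Cplx2, the complexin typical of excitatory forebrain neurons, the 3 GABAergic-like values of 725, 1345 and 453 overlapped the glutamatergic-like range of 278 to 629, and its call (0.82 ± 0.28, adjusted p = 0.0413) was lost in 10 alternatives, among them leaving out placebo mouse 1 (adjusted p = 0.0759) or placebo mouse 3 (0.0535).

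These 5 calls were made among 22 members that passed the filter on low counts, beside 12.8% of all 3389 genes tested (6.58% higher, 6.26% lower). With limma on log2 CPM 1 member, Sv2b, passed. The members' median difference was 0.18, against -0.08 over all genes. Without the filter 56 members were tested and 4 were higher and 2 lower, beside 3.55% of all genes (1.93% higher, 1.62% lower). Those added were Stxbp6 (amisyn, a SNARE-binding inhibitor of fusion), with 0 UMIs in the GABAergic-like cells of mice 1 to 3 and 24.7, 98.9 and 50.3 CPM in mice 4, 5 and 6, and Syt6, of whose 29 UMIs in this class 25 came from placebo mouse 5.

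The core fusion machinery did not pass the test between these classes, which called 16.5% of 2-fold changes in simulated counts. The log2 differences were 0.05 for Snap25 (95% interval -0.60 to 0.71), 0.52 for Vamp2 (-0.08 to 1.11), 0.72 for the fast calcium sensor Syt1 (0.04 to 1.41, adjusted p = 0.199), 0.33 for Syn2 (-0.25 to 0.91) and -0.25 for Syt4 (-1.01 to 0.52). The intervals of Vamp2, Syt1 and Syt4 reach past 2-fold in 1 direction, so differences of that size are not excluded by them. GABAergic-like cells had a median mitochondrial share of 17.5% against 9.12% in glutamatergic-like cells, and the 5 calls held when cells with over 20% mitochondrial UMIs were left out.

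Shares within isoform pairs do not move with the depth or scaling of a library. They used mice with at least 10 UMIs of the pair in both classes, with no minimum of 5 cells. Mice 1, 2 and 3 had 4, 4 and 1 GABAergic-like cells, so shares over 4 or 5 mice rest in part on such sums. UMIs count captured 3′ ends and are not divided by transcript length, so each share is compared between classes and not read as a ratio of proteins. Sv2a made up 63.4% ± 2.42 (SD, n = 4 mice) of Sv2a and Sv2b UMIs in glutamatergic-like cells and 98.1% ± 2.38 in GABAergic-like cells of the same mice. The share was higher in GABAergic-like cells in 4 of 4 mice, by 34.7 points ± 2.89 (SD), and the two-sided exact permutation test gave p = 0.125, the smallest that 4 pairs allow (adjusted p = 0.25 over the 6 pairs that could be tested).

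The Cplx1 share of the complexin pair rose by 9.61 points on average, from 14.96% ± 5.501 to 24.6% ± 12.6 (SD, n = 5 mice), and was higher in 4 of 5 mice (exact permutation p = 0.125, adjusted p = 0.25). Syt4 took 10.4% ± 0.594 of Syt1 and Syt4 UMIs in glutamatergic-like and 5.49% ± 2.92 in GABAergic-like cells, and was lower in 5 of 5 mice (exact permutation p = 0.0625, the smallest possible, adjusted p = 0.25). For Vamp1 of Vamp1 and Vamp2 the values were 8.36% ± 1.87 and 14.3% ± 3.03 (n = 3 mice, exact permutation p = 0.25, the smallest possible). No share passed the threshold after adjustment.

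**Figure D1:**
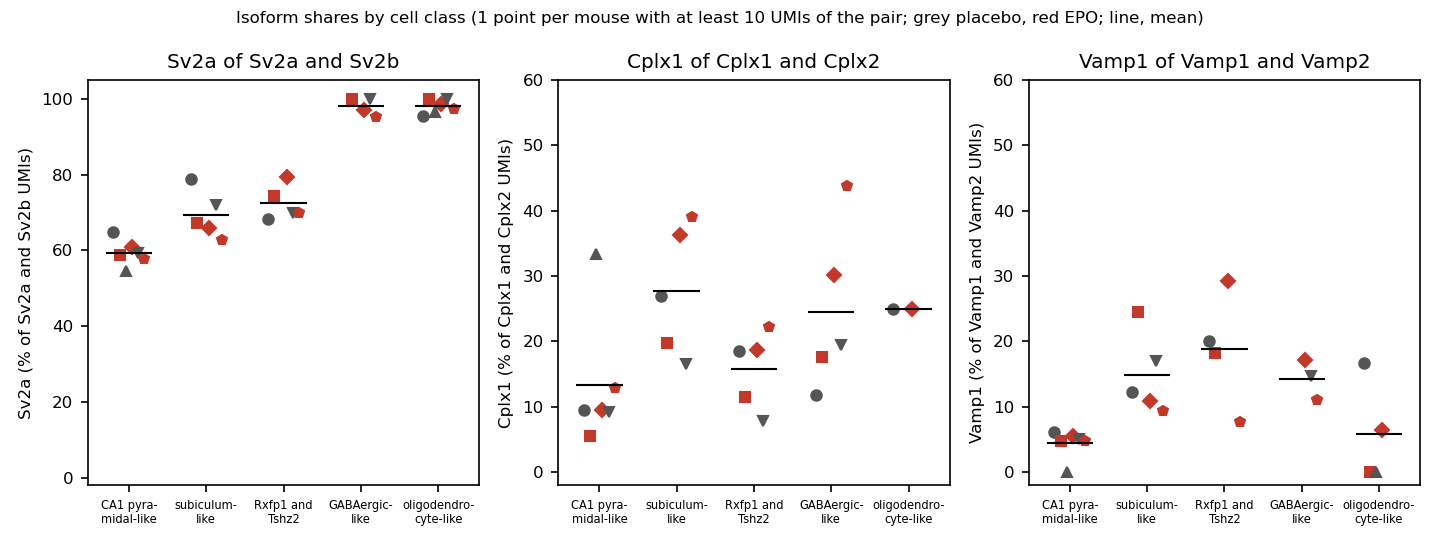
Share of 1 isoform in the UMIs of its pair (percent, vertical axis) by cell class, with 1 point per mouse that had at least 10 UMIs of the pair, grey for placebo and red for EPO, and a line at the mean. Sv2a points lie between 54.5% and 64.9% in CA1 pyramidal-like cells and at or above 95.1% in GABAergic-like and oligodendrocyte-like cells, while Vamp1 stays at or under 6.15% in CA1 pyramidal-like cells.

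The second question was which members are neuronal and which are not. Of the 22 members tested, 13 were lower than in glutamatergic-like cells in all 4 of the oligodendrocyte-like, astrocyte-like, OPC-like and endothelial-like classes, among them Snap25, Vamp2, Stxbp5l, Snap91, Syn2, Sv2b, Cplx1, Cplx2, Syt1, Syt4, Syt5 and Syt7. Stx4a and Stxbp3a were higher in all 4 classes, 8 members were higher in at least 1, and Stx12 was called in none.

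Counts and medians by class are descriptive, since most members that passed the filter did so through the neurons. In oligodendrocyte-like cells 6 members were higher and 13 lower, beside 33.7% and 26% of all 3389 genes (59.7% in either direction), and the members' median difference was -2.55 against 0.17 over all genes. In astrocyte-like cells the counts were 5 and 14 (all genes 30.3% and 20.7%, together 51%, members' median -2.92 against 0.24), in OPC-like cells 3 and 14 (26.8% and 17.5%, together 44.3%, -1.79 against 0.29) and in endothelial-like cells 5 and 15 (35.1% and 22.4%, together 57.5%, -3.27 against 0.28). Without the filter on low counts, 10 of 56 members were higher and 28 lower in oligodendrocyte-like cells (12.3% and 13.1% of all genes, together 25.4%). The same counts were 6 and 20 in astrocyte-like (11.1% and 7.12%, together 18.2%), 5 and 17 in OPC-like (7.56% and 4.2%, together 11.8%) and 9 and 22 in endothelial-like cells (11.1% and 7.65%, together 18.8%).

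Scaling by total UMIs moved the all-gene split more than the members' split. In oligodendrocyte-like cells all genes went from 1141 higher and 882 lower to 747 and 1307, in astrocyte-like cells from 1026 and 701 to 685 and 1086, and in endothelial-like cells from 1188 and 759 to 965 and 959. The members' counts became 4 and 13 in oligodendrocyte-like cells, 4 and 14 in astrocyte-like cells, and did not move in endothelial-like cells.

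The neuronal members fell far. Snap25, the plasma membrane SNARE of synapses, was at 1167, 1609 and 1987 CPM (lowest, median, highest of 6 mice) in glutamatergic-like and at 20.4, 29.0 and 119 in oligodendrocyte-like cells, and Syt1 at 1873, 2595 and 2934 against 0, 71.6 and 201. Neither pair of ranges overlapped, and the log2 differences were -4.54 ± 0.34 (adjusted p = 4.83e-18) and -4.51 ± 0.34 (7.59e-18) in edgeR's quasi-likelihood test. Syn2 (-4.98 ± 0.37) and Syt5 (-5.20 ± 0.53) fell as far, and Snap91, which helps to retrieve vesicles after fusion, had 0 UMIs in endothelial-like cells, where 3 counts would be 15.9 CPM, against 161 to 270 in glutamatergic-like cells.

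What remained of these transcripts in glia was compared with neuron-only genes, as a gauge of free neuronal RNA. Except for Olfm1, these genes were also markers that named the glutamatergic-like class, so low levels elsewhere were partly set by the naming. The 6 neuron-only genes (Slc17a7, Camk2a, Nrgn, Chn1, Neurod6, Olfm1) stood at 4.34% of their glutamatergic-like level in oligodendrocyte-like cells (2.13% to 7.66% over the mice), 7.03% in astrocyte-like, 8.16% in OPC-like and 3.47% in endothelial-like cells. In oligodendrocyte-like cells Snap25 was at 3.70%, Syt1 at 4.12%, Syt4 at 3.501% and Syn2 at 2.15%. These values lay within the range of the neuron-only genes over the mice, and their source was not tested. Others called lower there stood higher, with Cplx1 at 12.5% (0% to 20.7% over the mice), Snap91 at 14.3% (0% to 34.5%) and Stxbp5l at 9.51% (0% to 30.1%), as did Cplx2 in astrocyte-like cells (18.0%, 3.31% to 32.5%) and Syt4 (26.6%, 0% to 131%) and Snap91 (29.5%, 0% to 88.2%) in OPC-like cells. The ranges of all of these over the mice overlapped that of the neuron-only genes.

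Vamp2, the main synaptic synaptobrevin, stood at 34.7% in oligodendrocyte-like (14.1% to 63.6% over the mice) and 40.6% in astrocyte-like cells (22.4% to 54.7%), where the neuron-only genes reached at most 7.66% and 13.5%. It stood at 32.4% in OPC-like (15.3% to 58.6%, neuron-only genes 5.46% to 15.7%) and, on 8 UMIs, at 17.7% in endothelial-like cells (0% to 33.4%, neuron-only genes 0% to 8.66%), where the ranges overlapped. Its log2 differences ranged from -0.84 in astrocyte-like to -2.05 in endothelial-like cells. The call for Vamp2 in astrocyte-like cells was lost in 4 alternatives, among them without EPO mouse 4 (adjusted p = 0.0919) and with limma, and that in OPC-like cells without EPO mouse 6 (adjusted p = 0.0603).

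**Figure D2:**
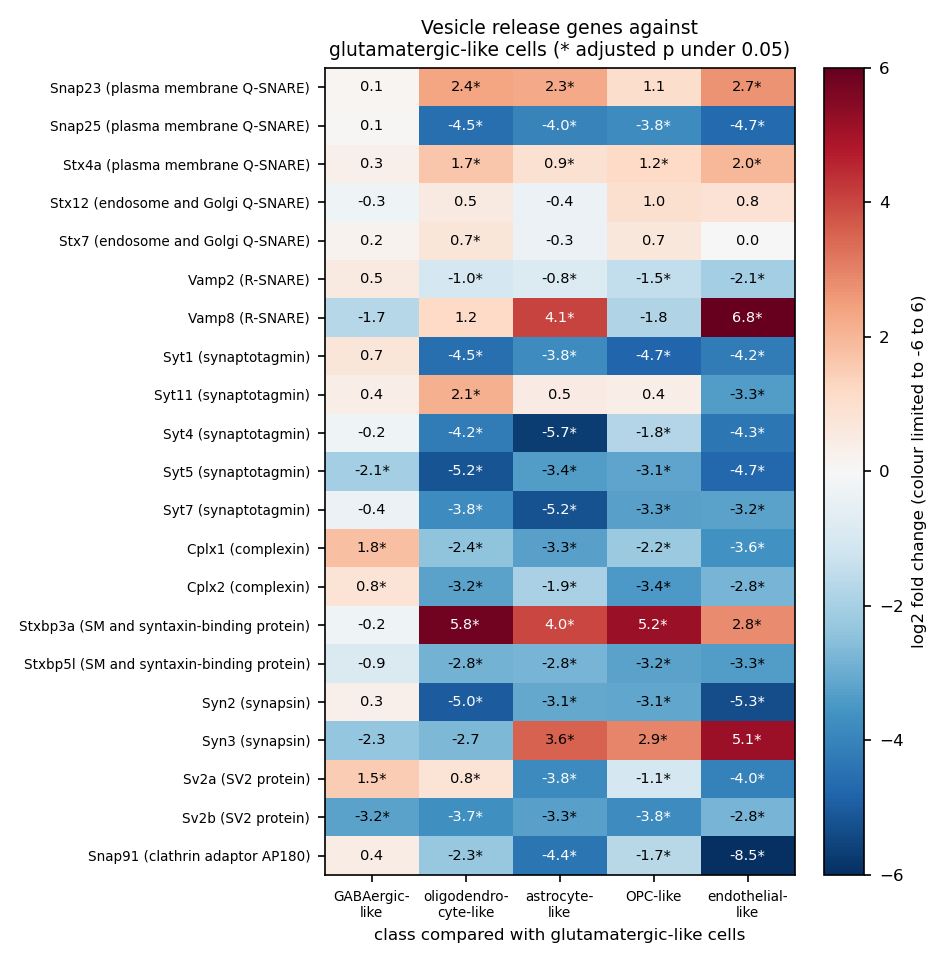
Log2 fold change of members tested, by role, in each class against glutamatergic-like cells (colour and number, with * for an adjusted p under 0.05 in edgeR's quasi-likelihood test). Blue cells mark members such as Snap25 and Syt1 lower in all 4 glial and vascular classes, and red cells mark, among others, Stxbp3a and Stx4a in all 4, Vamp8 in endothelial-like and Syt11 in oligodendrocyte-like cells.

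Among the members higher in glia, Stxbp3a was the clearest. This Munc18 relative pairs with syntaxin 4 and SNAP-23 in many tissues, and it lies at chr3:108793176-108840526 (minus strand, GENCODE vM21, GRCm38). It measured 1.91, 6.86 and 18.4 CPM (lowest, median, highest) in glutamatergic-like and 206, 289 and 439 in oligodendrocyte-like cells, without overlap in any mouse (5.77 ± 0.34, adjusted p = 4.34e-22). It was also higher in OPC-like (5.20 ± 0.48), astrocyte-like (4.01 ± 0.52) and endothelial-like cells (2.83 ± 0.77). Stxbp3b, whose 24 UMIs belong to a processed copy of this gene on chromosome 19 (Stxbp3-ps in GENCODE), cannot be cleanly separated from it by short reads.

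Stx4a and Snap23, which encode its partners, were also higher in oligodendrocyte-like cells, by smaller log2 differences. Stx4a lay at 59.3, 80.0 and 128 CPM in glutamatergic-like and 110, 188 and 230 in oligodendrocyte-like cells, with some overlap (1.68 ± 0.26, adjusted p = 7.46e-08), and rose in endothelial-like cells by 1.996 ± 0.35. Stx4a overlaps a gene on the opposite strand, and whether the counting used strand is not given in the sources used here. Its calls in OPC-like cells (1.18 ± 0.41, lost without EPO mouse 4, adjusted p = 0.577) and in astrocyte-like cells (0.91 ± 0.36, lost in 13 alternatives, among them without placebo mouse 1, EPO mouse 4 or placebo mouse 5 and without the shared barcodes in both mice, adjusted p = 0.134) were less stable.

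Snap23, the general relative of Snap25, was at 0, 10.2 and 25.6 CPM in glutamatergic-like and 13.7, 37.7 and 82.1 in oligodendrocyte-like cells (2.36 ± 0.53, adjusted p = 0.00011), and the ranges overlapped and limma did not call it (adjusted p = 0.0575). It was higher in endothelial-like cells by 2.70 ± 0.72 and in astrocyte-like cells by 2.26 ± 0.68, where placebo mouse 1 had 113 CPM and the call was lost without it (adjusted p = 0.168) and with limma. In the 2 mice with enough UMIs, Snap23 made up 40.9% and 51.4% of Snap23 and Snap25 UMIs in oligodendrocyte-like cells, against at most 1.98% in the glutamatergic-like cells of any mouse.

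Syt11, a synaptotagmin that does not bind calcium and acts in membrane retrieval, was among the most abundant members in both neurons and oligodendrocyte-like cells. It held 922, 1007 and 1139 CPM (lowest, median, highest) in glutamatergic-like and 2836, 3165 and 3545 in oligodendrocyte-like cells, with a tight spread and no overlap (2.14 ± 0.24, adjusted p = 9.64e-12). In endothelial-like cells it fell by 3.34 on the log2 scale, and in astrocyte-like (0.47) and OPC-like cells (0.40) it did not pass the test. Syt11 and Sv2a were the 2 members called in opposite directions among these 4 classes.

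Sv2a, a protein of the synaptic vesicle membrane, held a neuronal level in oligodendrocyte-like cells. Its level there was 315, 461 and 497 CPM, or 127% of that in glutamatergic-like cells and far over the 4.34% of the neuron-only genes. Sv2a made up 98.1% ± 1.80 (SD, n = 6) of its pair with Sv2b. The call that it was higher (0.84 ± 0.23, adjusted p = 0.000961) was lost with total UMIs as scaling (0.24, adjusted p = 0.37), with DESeq2 (0.54, adjusted p = 0.0502) and with limma. In astrocyte-like (-3.82 ± 0.50) and endothelial-like cells (-4.05 ± 0.60) Sv2a fell, and in OPC-like cells (-1.07 ± 0.39) the call was lost without EPO mouse 2 or EPO mouse 4 (adjusted p = 0.0911 and 0.369).

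Endothelial-like cells held more transcript of VAMP8, the SNARE of late endosomes and of secretion in many non-neuronal cells. The 18 microglia-like cells were not compared in the main fit. At least 5 of them were found only in placebo mouse 1 (8 cells) and EPO mouse 2 (5 cells), so Vamp8 is not shown to be particular to endothelial-like cells. Vamp8 stood at 199, 117, 225, 50.3 and 296 CPM in mice 1, 2, 4, 5 and 6 and at no more than 4.26 in the glutamatergic-like cells of any mouse (6.80 ± 0.66, adjusted p = 3.48e-13). It was also higher in astrocyte-like cells (4.06 ± 0.86), where it held 8 UMIs. Without the filter on low counts, Vamp5 (6.61, adjusted p = 1.7e-16) and Vamp3, or cellubrevin (3.92, adjusted p = 3.17e-12), were higher in endothelial-like cells as well, and Stxbp6 (4.29, adjusted p = 5.95e-28) and Vamp3 (3.19, adjusted p = 1.36e-15) in oligodendrocyte-like cells, all in edgeR's quasi-likelihood test. Stxbp6 lay at 71.4, 93.7 and 173 CPM in oligodendrocyte-like cells and at most at 16.9 in glutamatergic-like cells.

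Syn3 also passed the test in endothelial-like (5.13 ± 0.75), astrocyte-like (3.55 ± 0.83) and OPC-like cells (2.92 ± 1.09). The Syn3 gene encloses Timp3 on the other strand, and Timp3 stood at 1075 ± 400 (SD, n = 5), 534 ± 110 (n = 6) and 264 ± 268 (n = 4) CPM in the same 3 classes against 12.3 ± 15.2 in glutamatergic-like cells. Reads of the pair cannot be told apart if strand was not used. All 4 Syn3 UMIs of OPC-like cells came from EPO mouse 4, and without this mouse the difference turned to -2.50.

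Of the endosomal syntaxins, Stx12 was not called in any glial or vascular class (log2 differences -0.37 to 0.96). Stx7 passed the test in oligodendrocyte-like cells (0.74 ± 0.28, adjusted p = 0.0185) and lost the call in 12 alternatives, among them without placebo mouse 1 (adjusted p = 0.0667), EPO mouse 2 (0.081), EPO mouse 4 (0.0525) or EPO mouse 6 (0.0695). In OPC-like cells the call for Syt4 (-1.77) was lost without EPO mouse 4 (-1.30, adjusted p = 0.0729) and that for Snap91 (-1.67) without EPO mouse 6 (-1.14, adjusted p = 0.112). Cplx1 (-2.22) lost its call without EPO mouse 4 (adjusted p = 0.0768) or EPO mouse 6 (0.061), while its difference stayed at -2.13 and -2.18.

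The third question was whether release genes differ among glutamatergic neurons. Subiculum-like cells held more Cplx1, Snap25, Syt4 and Sv2a than CA1 pyramidal-like cells and less Stxbp5 (tomosyn, an inhibitor of SNARE assembly). Of 24 members tested, 6 were higher and 1 was lower, beside 18% and 16.5% of all 3650 genes (34.5% in either direction), with a members' median of 0.15 against 0.06 over all genes. Without the filter the counts were 9 and 3 of 55, beside 5.07% and 4.48% of all genes (together 9.55%).

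Cplx1 showed the largest of these differences. CA1 pyramidal-like cells held 29.5, 62.4 and 96.4 CPM (lowest, median, highest of 6 mice), and subiculum-like cells of mice 1, 2, 4, 5 and 6 held 192, 127, 227, 128 and 305, above every CA1 value (1.62 ± 0.19, adjusted p = 2.24e-09). Snap25 rose from 948, 1263 and 1567 to 1993, 3627, 2612, 2573 and 2815 in the same mice, again without overlap (0.96 ± 0.15, adjusted p = 1.7e-06). Syt4 (0.72 ± 0.15) and Sv2a (0.70 ± 0.15) were among the others that were higher, and Stxbp5 was lower (-1.09 ± 0.23; limma kept the calls of Cplx1, Snap25 and Sv2a), with 86.2 to 175 CPM in CA1 pyramidal-like and 46.9 to 115 in subiculum-like cells.

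The call for Syt11 (0.40 ± 0.14, adjusted p = 0.0243) was lost without placebo mouse 1 (adjusted p = 0.124), EPO mouse 2 (0.0778), EPO mouse 4 (0.0808) or EPO mouse 6 (0.068) and without the shared barcodes in both mice (0.128). Subiculum-like cells had more UMIs per cell (median 8447) and a lower mitochondrial share (4.93%) than CA1 pyramidal-like cells (5672 and 7.67%), and with at most 20% mitochondrial UMIs 7 members were higher and 1 lower.

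Among the weakly expressed members, Syt2 and Vamp1 were higher in subiculum-like than in CA1 pyramidal-like cells, and both were higher in the Rxfp1 and Tshz2 cells as well. Both encode the release isoforms of fast-firing neurons of the hindbrain and spinal cord. Syt2 had 5 UMIs in CA1 pyramidal-like cells (0 to 2.72 CPM over 6 mice) and 67.4, 119, 111, 33.8 and 83.3 CPM in the subiculum-like cells of mice 1, 2, 4, 5 and 6, with no overlap (log2 difference 5.32 without the filter on low counts, adjusted p = 6.42e-29). Syt2 overlaps Ppp1r12b and Vamp1 overlaps Cd27 and Tapbpl on the opposite strand, as Syn1 and Syn2 overlap Timp1 and Timp4, so the doubt on strand given for Stx4a holds for them too. On the same strand, Syt1 overlaps Gm5136, Syn2 overlaps Gm17482 and Vamp3 overlaps Camta1. Counting by strand would not separate these.

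Vamp1 was at 0, 12.1 and 17.6 CPM (lowest, median, highest) in CA1 pyramidal-like and at 37.0 to 102 in subiculum-like cells (1.77, adjusted p = 3.1e-05). In the Rxfp1 and Tshz2 cells it was at 0, 28.03 and 50.5 CPM, which overlapped the CA1 range (1.83, adjusted p = 0.000987). Vamp1 made up 4.40% ± 2.22 (SD, n = 6 mice) of Vamp1 and Vamp2 UMIs in CA1 pyramidal-like, 14.8% ± 6.12 (n = 5) in subiculum-like and 18.8% ± 8.85 (n = 4) in the Rxfp1 and Tshz2 cells. Syt17, a synaptotagmin without a transmembrane segment, ran the other way, with 32.1, 47.7 and 61.2 against 0 to 20.3 CPM (-2.26, adjusted p = 1.76e-06). The test without the filter also called Syt10 higher (1.66) and Stx5a lower (-1.78).

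**Figure D3:**
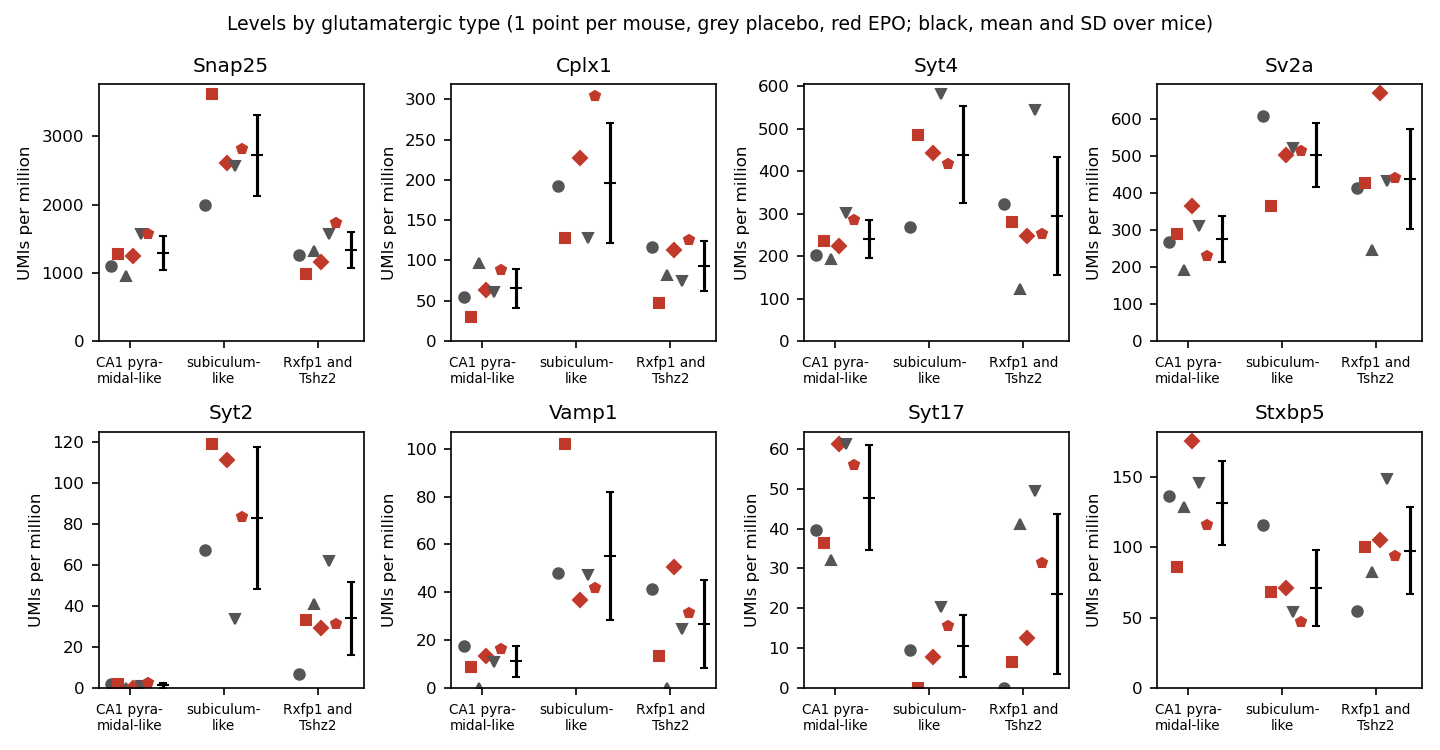
Level of 8 members (CPM, vertical axis, from 0) in the 3 glutamatergic types, with 1 point per mouse and type of at least 5 cells, grey for placebo and red for EPO, and the mean and SD over mice in black. Snap25, Cplx1, Syt2 and Vamp1 of subiculum-like cells lie above all CA1 pyramidal-like points, and Syt17 below them.

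In the Rxfp1 and Tshz2 cells, whose mitochondrial share was high, results depended on the scaling. With the main scaling 9 of 24 members were higher and 2 lower than in CA1 pyramidal-like cells, beside 28% and 23.6% of all genes (together 51.5%, members' median 0.28 against 0.02). Total UMIs in place of TMM moved the all-gene median from 0.02 to -0.53 and the all-gene split from 1021 higher and 860 lower to 412 and 1711, and the members' counts became 4 and 6. DESeq2 gave 8 and 5, TMM over all genes 9 and 5, and cells with at most 20% mitochondrial UMIs 12 and 0. Without the filter the counts were 16 and 0 of 55, beside 10.3% and 4.66% of all genes (together 14.9%).

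Sv2a (1.24 ± 0.16), Stxbp5l (1.23 ± 0.17), Syt7 (1.25 ± 0.20) and Cplx1 (1.21 ± 0.25) were higher under both scalings, at 0.69, 0.68, 0.69 and 0.67 with total UMIs, and the call for Cplx1 was lost without Scrublet doublets (0.85, adjusted p = 0.0559). Snap25 (0.57, or 0.02 with total UMIs) and Syt4 (0.90, or 0.35) lost the call with total UMIs, and Syt11 (0.52) and Cplx2 (0.45) turned to -0.04 and -0.09. On the plain scale, Snap25 stood at 1285 ± 248 CPM in CA1 pyramidal-like and 1336 ± 269 in these cells (SD, n = 6). Syt2 was present at 6.87, 32.4 and 61.8 CPM (lowest, median, highest of 6 mice), above every CA1 pyramidal-like value (4.46 without the filter, adjusted p = 1.11e-10).

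Both lower calls of this type were lost in some alternatives. Stx12 (-0.74, adjusted p = 0.0468) lost its call without EPO mouse 2, EPO mouse 4, placebo mouse 5 or EPO mouse 6 and without the shared barcodes (adjusted p = 0.0619 when left out of EPO mouse 4). Syt16 (-0.82, adjusted p = 0.0258) lost it without EPO mouse 2, 4 or 6. The higher call for Cplx2 was lost without placebo mouse 5 (adjusted p = 0.15) or without the shared barcodes in both mice (0.077).

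The last question was whether EPO changed these genes within 6 hours. No member passed edgeR's quasi-likelihood test at an adjusted p under 0.05, among 47 tested over all retained cells, 41 in glutamatergic-like cells and 5 in oligodendrocyte-like cells. The background was the same, with 0% of 10043, 8524 and 1539 genes called. In simulated counts these 3 tests called 0%, 26% and 32% of 2-fold changes, so most changes of that size would be missed. At an unadjusted p under 0.05 there were 127, 158 and 24 genes, of which 1, 1 and 0 were members, and DESeq2 called 1 gene over all cells. Without placebo mouse 5 these counts were 993 genes and 13 members over all cells and 363 and 2 in glutamatergic-like cells, where they were 298 and 1 without placebo mouse 1. In oligodendrocyte-like cells they ran from 12 (without EPO mouse 2 or EPO mouse 6) to 74 genes (without EPO mouse 4; 40 without placebo mouse 1) and 0 members. DESeq2 and limma called 0 members in these 3 comparisons. The members' median log2 change was 0.12 over all cells and 0.05 in glutamatergic-like cells, against -0.01 and 0.00 over all genes.

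For the best known members of the release machine the intervals in glutamatergic-like cells were narrow enough to limit the size of a change. The log2 change after EPO was 0.27 for Snap25 (95% interval -0.17 to 0.72), 0.12 for Syt1 (-0.36 to 0.60), -0.06 for Vamp2 (-0.60 to 0.49) and -0.32 for Stx1a (-1.09 to 0.44). It was 0.36 for Cplx1 (-0.35 to 1.06), 0.02 for Cplx2 (-0.46 to 0.50), 0.36 for Syn1 (-0.25 to 0.96), 0.07 for Syn2 (-0.40 to 0.55), 0.15 for Sv2a (-0.31 to 0.61) and 0.25 for Sv2b (-0.21 to 0.71). The intervals of Snap25, Syt1, Vamp2, Cplx2, Syn2, Sv2a and Sv2b all lay within 1 log2 unit of 0 on both sides. Stx4a had the most negative change (-0.53, -1.11 to 0.04, unadjusted p = 0.0662 in edgeR).

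In glutamatergic-like cells Snap25 measured 1267, 1167 and 1710 CPM for placebo (mice 1, 3 and 5) and 1608, 1609 and 1987 CPM for EPO (mice 2, 4 and 6), and the groups overlapped. Over all retained cells its values were 862, 577 and 1512 against 1224, 1233 and 1697, with overlap as well. The 122 cells of 1 CA1 pyramidal-like cluster came mostly from placebo mouse 5 (64) and EPO mouse 6 (34) and the 37 of another only from placebo mouse 1 (15) and EPO mouse 4 (22), so the makeup of the glutamatergic-like class differed between mice within both groups. Mice 1 and 4 are also the pair that shared 59 cell barcodes. How many cells of the cluster of 37 carried a shared barcode was not counted.

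**Figure D4:**
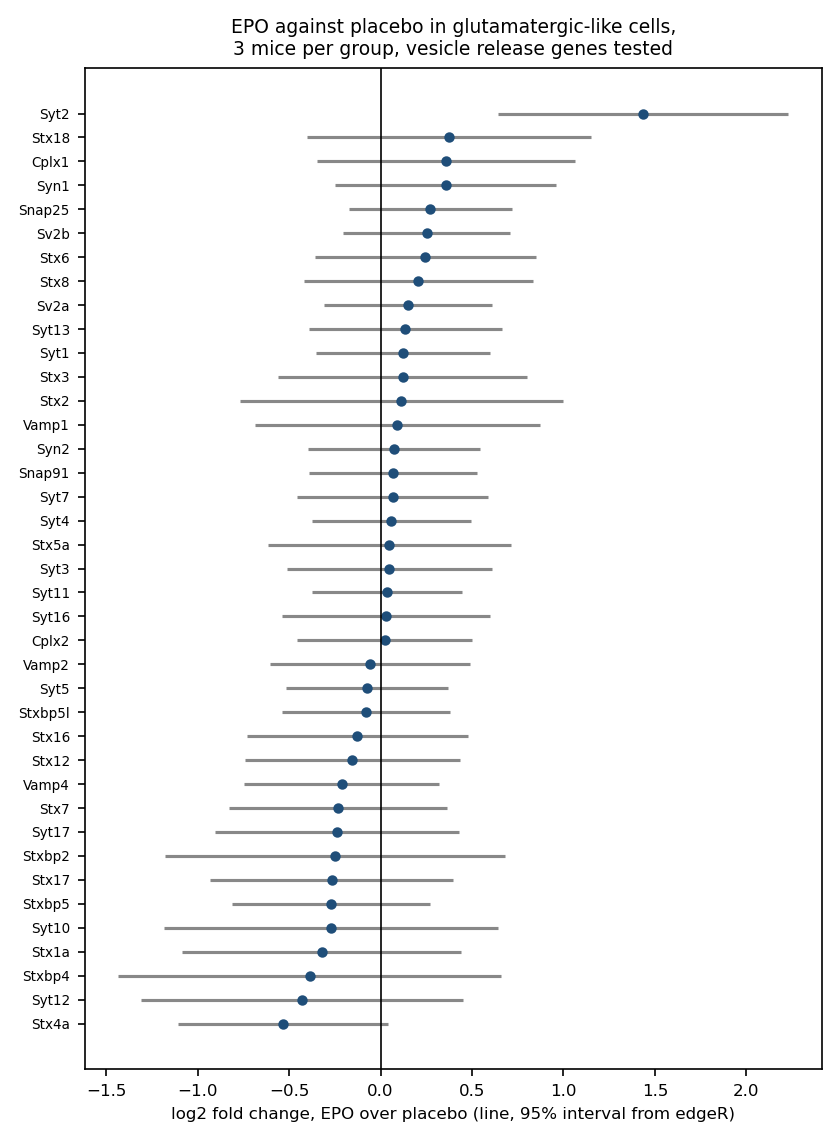
Log2 fold change of EPO over placebo (horizontal axis) in glutamatergic-like cells for members tested, with 3 mice per group (points, edgeR estimates; lines, 95% intervals). The interval of Syt2 is above 0 before adjustment, and those of the other members shown include 0.

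Isoform shares of glutamatergic-like cells did not separate the groups. The Sv2a share was 66.0% ± 3.18 in placebo and 63.7% ± 2.88 in EPO mice (SD over 3 mice per group, exact permutation p = 0.4), the Cplx1 share 16.8% ± 8.01 and 16.7% ± 6.68 (p = 1, exact permutation), and the Syt4 share 10.5% ± 0.583 and 10.3% ± 0.633 (p = 1, exact permutation). The share of Syn1 among Syn1 and Syn2 was 11.96% ± 1.81 against 14.9% ± 4.08 (exact permutation p = 0.3, adjusted p = 0.933 over 7 pairs). With 3 mice against 3 the smallest possible p is 0.1.

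Syt2 was the member with the smallest p. Over all retained cells it measured 7.997, 4.89 and 8.50 CPM for placebo (mice 1, 3 and 5), against 22.1, 30.3 and 26.0 CPM for EPO (mice 2, 4 and 6). Every EPO value lay above every placebo value, and the log2 change was 1.70 ± 0.37 (unadjusted p = 0.000909, adjusted p = 1.00 in edgeR's quasi-likelihood test). In glutamatergic-like cells the values were 12.8, 10.7 and 10.5 against 28.2, 35.8 and 30.4 (1.44 ± 0.38, unadjusted p = 0.00146). The counts behind them were 9, 1 and 11 UMIs against 21, 59 and 36.

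Groups that do not overlap are frequent among all genes. Of the 47 members tested over all cells, 2 (Syt2 and Syt7, 4.26%) were higher in every EPO mouse, beside 3.88% of all genes, and 0 were lower, beside 1.97%. In glutamatergic-like cells the count was 1 of 41 (2.44%), beside 4.58% of all genes. Syt7, a slow calcium sensor, had 138, 103 and 115 CPM after placebo and 151, 151 and 172 after EPO, with a log2 change of 0.34 (95% interval -0.15 to 0.83).

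By cell type, subiculum-like cells gave 73.0% of the 137 Syt2 UMIs, the Rxfp1 and Tshz2 cells 14.6% and CA1 pyramidal-like cells 3.65%. Of the glutamatergic-like cells, the subiculum-like share was 11.8% ± 2.57 with placebo and 14.7% ± 6.64 with EPO (SD over 3 mice each, exact permutation p = 0.5). It was lowest in EPO mouse 2 (7.84%) and 13.9% in placebo mouse 5. Of the glutamatergic-like UMIs, which set the CPM, subiculum-like cells held 103871 of 704095 in placebo mouse 1 and 148060 of 1046398 in placebo mouse 5. In EPO mice 2, 4 and 6 they held 117731 of 708198, 378688 of 1369761 and 384006 of 1150759. By UMIs, unlike by cells, the subiculum-like share was thus higher in each EPO mouse than in placebo mice 1 and 5. Placebo mouse 3, with 2 such cells, is not in this comparison. Whether this makeup accounts for the Syt2 levels was not tested. Within subiculum-like cells Syt2 measured 67.4 and 33.8 CPM in placebo mice 1 and 5, with 0 UMIs in the 2 such cells of placebo mouse 3, and 119, 111 and 83.3 in EPO mice 2, 4 and 6, without overlap. These values rest on 7 and 5 UMIs in placebo mice 1 and 5 and on 14, 42 and 32 in EPO mice 2, 4 and 6. An EPO effect within this type was not tested, and how many other genes separate the mice there was not counted. Within the Rxfp1 and Tshz2 cells the values were 6.87, 41.2 and 61.8 against 33.4, 29.4 and 31.4, which overlapped.

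**Figure D5:**
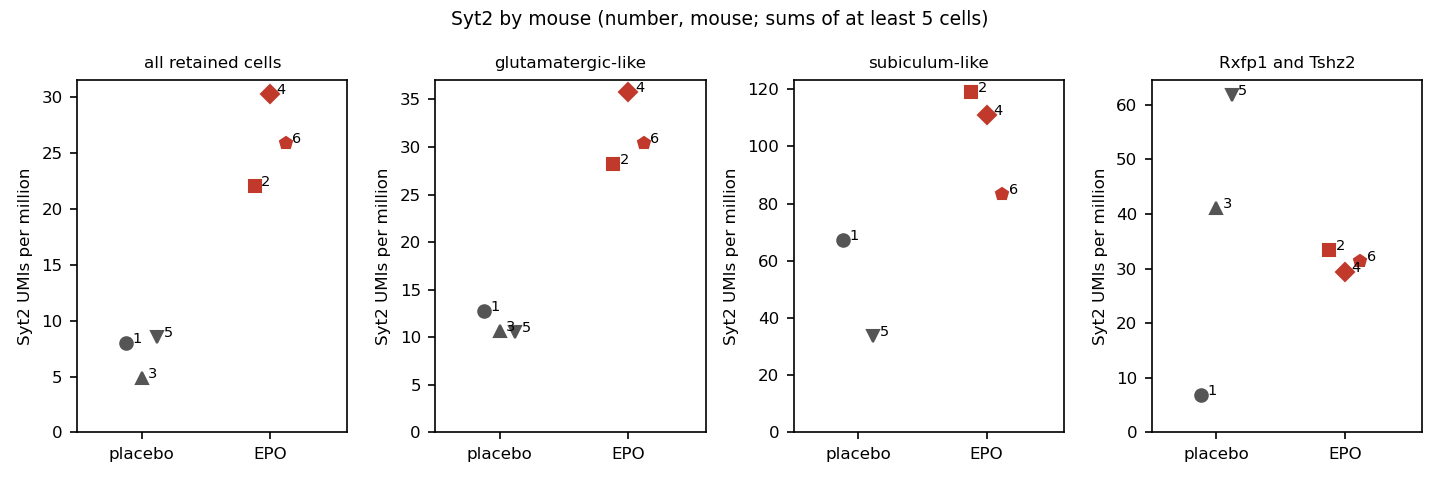
Syt2 level (CPM, vertical axis from 0, each panel with its own scale) in placebo (grey) and EPO (red) mice, numbered by mouse, for all retained cells, glutamatergic-like, subiculum-like and Rxfp1 and Tshz2 cells, in sums of at least 5 cells. EPO mice lie above placebo mice in the first 3 panels and among them in the fourth, and placebo mouse 3 is left out of the subiculum-like panel, where it had 2 cells.

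In oligodendrocyte-like cells the 5 members tested changed by 0.44 (Stx7, 95% interval -0.35 to 1.23), 0.37 (Stx4a, -0.31 to 1.05), 0.17 (Syt11, -0.26 to 0.59), 0.23 (Stxbp3a, -0.40 to 0.87) and 0.12 (Sv2a, -0.44 to 0.67) on the log2 scale. Syt11 and Sv2a were thus bounded within 1 log2 unit of 0 in these cells too. Stxbp3a measured 278, 320 and 206 CPM after placebo and 439, 254 and 299 after EPO, with overlap.

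Other genes of the release pathway, from a list of 37 that are not SNAREs or their direct partners above, were counted beside the members. None was called by edgeR's quasi-likelihood test after EPO over all cells (35 tested, 0 at an unadjusted p under 0.05) or in glutamatergic-like cells (32 tested, 3 at an unadjusted p under 0.05). Those 3 were Rab3b (log2 change 1.32), Rab27b (-0.60) and Doc2b (-0.62). They make a larger share than the genes under this limit among all genes tested in glutamatergic-like cells, given above. Mean levels in subiculum-like and CA1 pyramidal-like cells were 70.8 and 7.62 CPM for Rab3b, 25.2 and 81.6 for Doc2b and 94.8 and 104 for Rab27b. Whether the makeup by type accounts for these changes was not tested. Of the 18 tested between classes, which could pass the filter through the neurons alone, 18 were lower in oligodendrocyte-like cells (26% of all genes), 16 in astrocyte-like (20.7%), 15 in OPC-like (17.5%) and 16 in endothelial-like cells (22.4%). In GABAergic-like cells 4 were higher (6.58% of all genes), among them the Rab3 effector rabphilin (Rph3a, 2.90) and the active zone protein Rims1 (1.16).

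Between CA1 pyramidal-like and subiculum-like cells 4 of 29 of these genes were higher and 6 lower in the latter, beside 18% and 16.5% of all genes, shares near those of the list. Rph3a rose most (3.90 ± 0.33, adjusted p = 9.98e-14, edgeR), and Rab3a, the vesicle GTPase, rose by 0.74. The active zone scaffold Erc2 (-1.53), the calcium sensor Doc2b (-1.67) and the priming factor Unc13a (-1.06) were lower. In the Rxfp1 and Tshz2 cells 12 of 29 were higher and 4 lower, beside 28% and 23.6% of all genes, and with total UMIs as scaling 5 were higher and 8 lower.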

How the data were processed

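CA1 cells of 6 mice were measured by Drop-seq. The authors deposited raw UMI counts per gene and barcode, 1000 barcodes per mouse, before any filter on cells. The submitters' processing notes name bcl2fastq 2.15, STAR 2.4.0 and mm10, and the annotation and use of strand are not given in the sources used here. Genes absent from a mouse, given as missing, were set to 0. The members and gene lists were chosen with earlier results of these data known.

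Retained cells were integrated in Seurat 5.3.0 (R 4.3.3) on 1000 variable genes per treatment, of which 8 members were left out, with 20 dimensions at resolution 1. Clusters were named from markers. Doublets marked by Scrublet (scanpy 1.11.5) were kept, since its share ranged from 0.369% to 18.6% of cells per mouse.

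UMI counts were summed per mouse and class (at least 5 cells) and tested in edgeR 4.0.16 by the quasi-likelihood test, with TMM scaling (class fits, on the 1000 genes of highest mean level), filterByExpr (minimum count 10, total 15) and Benjamini-Hochberg adjustment over all genes tested. Class and type fits had the mouse as a block. Each class compared held sums of 3 to 6 mice, and microglia-like cells, with fewer, were not compared. The pipeline was tested on simulated counts with 200 changed genes. Of 2-fold changes it called 0% for EPO over all cells, 26% in glutamatergic-like and 32% in oligodendrocyte-like cells. For GABAergic-like cells it called 16.5%, and for subiculum-like cells 85.5%. Of 4-fold changes it called 78%, 84%, 93%, 68.5% and 92.5% in the same order. At 2-fold, calls among unchanged genes were 1, 18, 3, 6 and 8. For EPO over all cells and in glutamatergic-like cells, and for GABAergic-like cells, this was a larger part of all calls than the threshold of 0.05 aims at. The tests of oligodendrocyte-like, astrocyte-like, OPC-like and endothelial-like classes and of the Rxfp1 and Tshz2 cells were not simulated. DESeq2 1.42.0, limma 3.58.1, other scalings, no filter on low counts, leaving out each mouse, other cell filters and other resolutions were alternatives, and leaving out shared barcodes, sums of at least 3 cells and TMM over all genes were added after seeing the data. Isoform shares used two-sided exact permutation tests on pairs with at least 10 UMIs, without the minimum of 5 cells. Named were members with an adjusted p under 0.05 (up to 12 in each direction), otherwise the 5 with the smallest p, and 28 best known members where tested; Stxbp6, Syt6, Syt2, Vamp1, Vamp3, Vamp5, Syt10, Syt17 and Stx5a in tests without the filter were chosen after their values were seen. Limits of 3 counts cover counting error only, and 95% intervals of log2 changes come from the edgeR fit over mice. A few genes are not reported here and are left out of the plots and of the neuron-only background list, while counts over the members include them.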

Additional observations from a re-analysis of the deposited data

Results flagged for a closer look

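In 3 of 41 groups of 4 to 6 mice tested for a far value, 1 mouse stood apart by Dixon's criterion, and chance flags about 1 in 20 groups. In oligodendrocyte-like cells, Sv2a of placebo mouse 5 (315 CPM) lay below the other mice (median 461 CPM). In astrocyte-like cells, Snap23 of placebo mouse 1 (113 CPM) lay above the others (median 36.2 CPM). In OPC-like cells, Syn3 was found in EPO mouse 4 (78.6 CPM) and had a median of 0 over the 4 mice.

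The barcodes that were not retained, which no comparison above uses, also held release genes. Snap25 was at 505 CPM there (1389 UMIs, against 1.09 CPM for 3 counts), Syt1 at 1157 CPM, Syt11 at 704 CPM and Stxbp3a at 37.1 CPM.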

How the results depend on the processing

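Over single members, 98 calls were made and 29 of them were lost in at least 1 alternative. Of 1916 values recomputed for single members, 1808 kept direction and side of the threshold and 3 reversed. Those were Syt11 (-0.040) and Cplx2 (-0.089) in the Rxfp1 and Tshz2 cells with total UMIs as scaling, and Syn3 in OPC-like cells, which ranged from -2.50 to 3.30 when each mouse was left out. Without the shared barcodes in EPO mouse 4, 97 of 98 calls were kept, and 94 without them in both mice.

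Counts moved by over 1.5 times in these cases, and the cause was not tested. After EPO, over all genes, 1 gene was called over all cells with the D number of the labels as a block, 1 with DESeq2 and 52 without the filter on low counts. In glutamatergic-like cells 11 were called without the filter and 0 to 4 when each mouse was left out (4 without placebo mouse 5), and in oligodendrocyte-like cells 1 without the filter. For Syt2, which was not called, the change over all cells ranged from 1.54 to 2.10 (adjusted p from 0.0687 to 1.0 over 17 alternatives, edgeR, DESeq2 or limma) and in glutamatergic-like cells from 1.24 to 1.83. Limma called 1 member in GABAergic-like and 3 in subiculum-like cells. Without the filter, members called numbered 12 in subiculum-like, 38 in oligodendrocyte-like and 31 in endothelial-like cells. The rise of the Vamp1 share in GABAergic-like cells was 7.43 points with members kept among the variable genes, 4.20 points with at most 20% mitochondrial UMIs and 8.25 points without Scrublet doublets. Total UMIs as scaling moved the all-gene median to -0.42 in oligodendrocyte-like, -0.33 in astrocyte-like, -0.23 in GABAergic-like and -0.53 in the Rxfp1 and Tshz2 cells.

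Fits of GABAergic-like cells without mouse 4, 5 or 6 were not run, since 2 mice with such cells remain, nor was the OPC-like class with at most 20% mitochondrial UMIs. No paired analysis was possible because the placebo mice (1, 3, 5) and EPO mice (2, 4, 6) share no replicate number, and class comparisons already hold the mouse as a block.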
